A study of Mus musculus with 9 samples.

Results

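A set of 30 genes for glutamate receptors and their auxiliary subunits were compared between the hippocampus of mutant and control mice. The members were chosen by symbol from the table of 18275 genes that the study deposited, in 6 classes: 4 AMPA receptor subunits, 6 NMDA receptor subunits, 5 kainate receptor subunits, 1 delta receptor, 6 metabotropic receptors and 8 auxiliary subunits. All 30 passed the minimum mean of 10, which 16196 genes of the table passed, so no member was lost to the filter. The lowest mean of a member over all libraries was 129 (Grm8) and the highest was 16840 (Gria1).

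Nestin;BrafKE/+ mice (n = 4) carry 1 Braf allele labelled K499E, abbreviated KE, a gain-of-function form of the kinase B-Raf in the RAS/MAPK pathway. The allele was floxed and was switched on by Nestin-Cre, which acts in neural stem cells, so that the neurons and the glia descending from them both carry it. The controls were Braf+/+ littermates (n = 5, genotype label WT), and the sources used here do not say whether they carried Cre. All 9 mice were males of 11 to 15 weeks on the C57BL/6N strain, and each gave 1 hippocampal library. The table holds gene totals, so the mutation itself could not be checked in it.

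Glutamate is the main excitatory transmitter of the brain. AMPA receptors carry most of the fast excitatory current, NMDA receptors admit calcium when glutamate meets a depolarised membrane, and kainate receptors act on both sides of the synapse. Metabotropic receptors signal through G proteins, and auxiliary subunits set how ionotropic receptors traffic, gate and desensitise. In the hippocampus these receptors underlie long-term potentiation and long-term depression, and the comparison asks whether their transcripts differ between the genotypes.

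Values are normalised counts as the study deposited them, and library totals lay between 19550000 and 20090000. Library names in the labels have 4 prefixes, grouped here into 3 series. Series A (mutant replicate 1 with controls 1 to 3) joins 2 prefixes, and its controls 1 and 2 have a prefix that no mutant has. Series B holds mutant replicates 2 and 3 with control 4, and series C holds mutant replicate 4 with control 5. Among the controls, 2 libraries stood apart by choroid plexus RNA: the summed level of 6 choroid plexus markers was 391500 in Braf+/+ replicate 2 and 113100 in Braf+/+ replicate 4, against 1367 to 24120 in the other libraries. Differences of the members given in full and of the ratios are also given without both of these choroid-rich controls. Braf+/+ replicate 4 is the only control of series B. Leaving it out takes series B, with mutant replicates 2 and 3, out of the genotype term. A call lost there cannot be assigned to choroid plexus RNA or to the loss of a series. For the other named genes past the test, the adjusted p without both choroid-rich controls is given, or whether the gene still passed. Where groups did not overlap with all 9 libraries, they cannot overlap with fewer controls. Markers of CA1, CA3 and dentate gyrus were detected in all 9 libraries, with no marker at 0. In bulk tissue, fewer cells of a type and less RNA per cell cannot be told apart. By immunostaining of hippocampus, the study reported more cells with the astrocyte proteins GFAP and S100β in these mutants. Cells stained for NeuN (neurons), parvalbumin or somatostatin (interneurons), Olig2 (oligodendrocytes) or Iba1 (microglia) were reported without significant change. Those are counts of stained cells and the values here are RNA.

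Of the 30 members, 2 passed an adjusted p of 0.05 (limma, Benjamini-Hochberg over 16196 genes), Gsg1l and Cnih3, which is 6.67% of the members against a background of 2.88% of all genes tested. Both were lower in Nestin;BrafKE/+ mice. No member was higher at this threshold, where the background was 1.52%, and the background for lower genes was 1.36%. At an unadjusted p under 0.05 there were 8 members (26.7%) against 18.5% of all genes. The groups did not overlap for 7 members (23.3%) against 15.7% of all genes. The difference had 1 direction within all 3 series for 10 members (33.3%), 4 of them higher and 6 lower, against 36.6% of all genes. With a minimum mean of 50, 2 members again passed the adjusted p of 0.05 (limma), against 3.64% of all genes. The list of members was drawn up with earlier results of these data known.

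The differences were small for most members. The median log2 fold change (Nestin;BrafKE/+ minus Braf+/+) was 0.02 over the 30 members and 0.0003 over all genes tested, and the median absolute value was 0.09 over the members and 0.12 over all genes. The sets are unlike in abundance, because every member had a mean of at least 100 and the other genes went down to 10. The median SE was 0.077 over the members and 0.105 over all genes. For 28 members the 95% interval of the log2 fold change lay inside -0.5 to 0.5, the exceptions being Gsg1l and the low-abundance Grm8. The interval included 0 for 22 members, and for 11 members leaving out 1 library turned the sign, none of them at an unadjusted p under 0.05. Spread between animals was also low, with a coefficient of variation from 3.56% (Gria1) to 18.5% (Grm8) in Braf+/+ libraries and a median of 6.31% over the members.

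**Figure D1:**
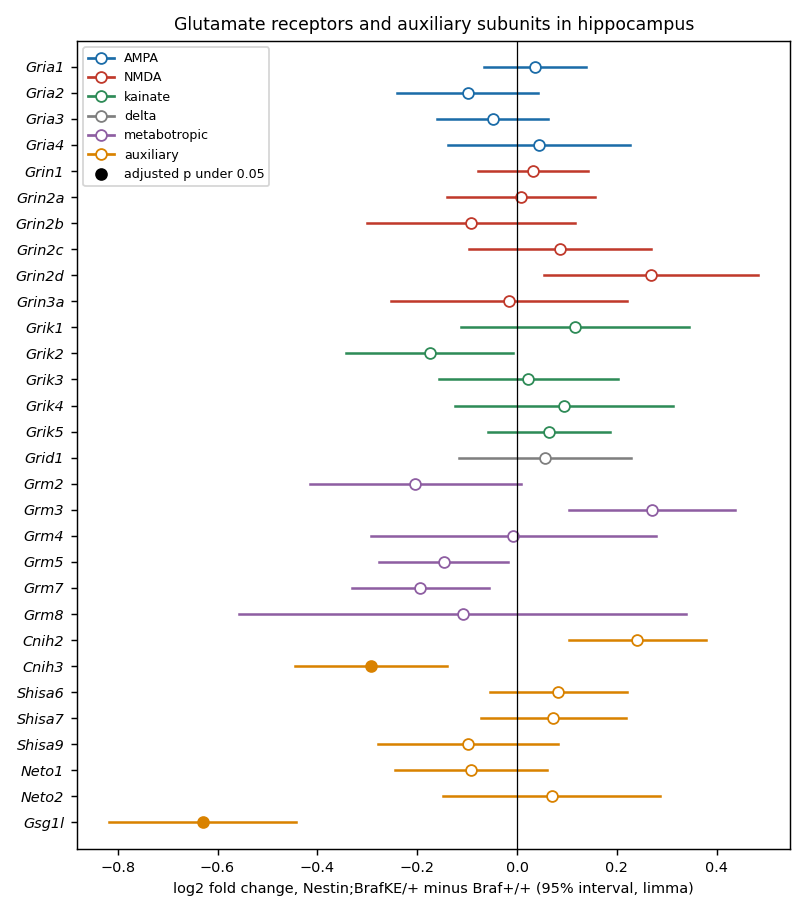
Log2 fold change (x axis, Nestin;BrafKE/+ minus Braf+/+) with its 95% interval for each of the 30 members (y axis), coloured by class, with filled points for an adjusted p under 0.05. Gsg1l at -0.63 lies apart from the other members, and Cnih3 at -0.29 is the other filled point.

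The 4 AMPA receptor subunits (Gria1 to Gria4, which form the tetrameric channel) did not pass the test, and their log2 fold changes lay between -0.10 (Gria2) and 0.04 (Gria4). Gria1, the subunit inserted during potentiation, was at 17060 ± 216 (SD, n = 4) in Nestin;BrafKE/+ and 16650 ± 593 (n = 5) in Braf+/+ libraries. Gria2, whose edited form makes the channel impermeable to calcium, was at 15860 ± 648 and 17010 ± 1228. For Gria1 the 95% interval of the log2 fold change ran from -0.07 to 0.14, and for Gria2 from -0.24 to 0.04. Scaled to the length of the canonical transcript, Gria1 took 54.5% ± 0.96 (n = 4) of the summed AMPA receptor level in Nestin;BrafKE/+ and 52.7% ± 0.89 (n = 5) in Braf+/+ libraries, followed by Gria2 (27.7% and 29.4%), Gria3 (13.6% and 13.9%) and Gria4 (4.14% and 3.97%). The share of Gria1 was 53.7 to 55.8% in the mutant and 51.3 to 53.5% in the control libraries. These ranges did not overlap. The same order of the subunits was found with all annotated exons as the length.

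Gria1 relative to Gria2 was one of 4 ratios examined, each formed from the deposited values. It was 1.07, 1.13, 1.09 and 1.01 in Nestin;BrafKE/+ replicates 1 to 4 and 0.939, 1.03, 0.984, 0.920 and 1.04 in Braf+/+ replicates 1 to 5, so the groups overlapped. The log2 difference was 0.13, with an exact two-sided permutation p of 0.0833 within series (0.167 after adjustment over the 4 ratios) and 0.0476 over all assignments (0.0952 adjusted). It was 0.12 in series A and 0.27 in series B but -0.04 in series C, and fell to 0.061 without Braf+/+ replicate 4 and 0.074 without both choroid-rich controls. The ratio of Gria3 to Gria2 was 0.253 ± 0.012 (n = 4) and 0.245 ± 0.017 (n = 5), p = 0.625 by exact permutation inside the series, and its log2 difference was 0.05 with all libraries and 0.034 without both choroid-rich controls.

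Grin1 encodes GluN1, the obligatory subunit of NMDA receptors. It is given in full because the study examined the protein by Western blot and reported a small increase. The study blotted further synaptic proteins, among them GRIA1, GRIA2, GRIN2A, GRIN2B and PSD-95, and reported no dramatic change in these. The values here are RNA. Grin1 was at 9124, 9437, 9068 and 8940.5 in Nestin;BrafKE/+ replicates 1 to 4 and at 9498, 8461, 8894, 8736.5 and 9148 in Braf+/+ replicates 1 to 5. The groups overlapped, and the lowest and the highest library were both controls. The means were 9142 ± 211 (n = 4) and 8948 ± 396 (n = 5), the log2 fold change was 0.03 (SE 0.05, 95% interval -0.08 to 0.14), and the adjusted p was 0.783 (limma). Without the 2 choroid-rich controls its sign turned, at -0.02.

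Of the GluN2 subunits, which set the kinetics of the NMDA receptor, Grin2a and Grin2b are the main forms in the adult hippocampus, and their log2 fold changes were 0.01 and -0.09. The ratio of Grin2a to Grin2b was 0.655 ± 0.032 (n = 4) and 0.612 ± 0.041 (n = 5), p = 0.417 by exact permutation inside the series, and its log2 difference was 0.10 with all libraries and 0.18 without both choroid-rich controls. Per kilobase of canonical transcript, Grin2a made up 37.6% and 37.5% of the GluN2 level in mutant and control libraries, and Grin2b 35.3% and 37.7%. In the controls the levels of Grin2a and Grin2b were close at 309.8 and 312 per kilobase of canonical transcript, and 257 and 297 per kilobase of all exons. In the mutants they were 312 and 293 on the first scale and 258 and 279 on the second, so their order there depended on the length used. Grin2c and the glycine-binding Grin3a had log2 fold changes of 0.09 and -0.02.

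Grin2d, a GluN2 subunit that gives slow deactivation and in the hippocampus is best known from interneurons, had the lowest level per kilobase of the NMDA receptor subunits. It was at 273, 255, 275 and 260.2 in Nestin;BrafKE/+ replicates 1 to 4 and at 234, 222, 199, 222 and 225 in Braf+/+ replicates 1 to 5. All 4 mutant libraries were above all 5 controls. The means were 266 ± 9.49 and 221 ± 13.0, and the log2 fold change of 0.27 (SE 0.10) did not pass the test (limma, adjusted p = 0.170). The exact permutation p was 0.0417 within series and 0.00794 over all assignments, each the smallest these designs can give. Here and for the other members whose groups do not overlap, the permutation p largely restates that lack of overlap. It uses the same values as limma and is not adjusted over the members. Without both choroid-rich controls the log2 fold change was 0.28 (adjusted p = 0.407, limma). Its share of the GluN2 level was 5.92% ± 0.30 (n = 4) and 4.92% ± 0.37 (n = 5). The predicted gene Gm45441 overlaps an exon of Grin2d on the opposite strand and was at 78.9 ± 19.96 and 121 ± 8.78. The summed level of 8 inhibitory neuron markers was 16960 to 18860 in Nestin;BrafKE/+ and 14960 to 16750 in Braf+/+ libraries. Of these markers 7 of 8 had a log2 fold change above 0, 3 had an unadjusted p under 0.05 (Npy at 1.01, Slc32a1 at 0.32 and Sst at 0.24), and Npy alone passed the test. Of the 16196 genes tested, 8113 were above 0, 18.5% had an unadjusted p under 0.05 and 2.88% passed (limma). The part of these markers in the Grin2d values was not tested.

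Kainate receptors are built from Grik1 to Grik3, which form channels on their own, and from Grik4 and Grik5, which need them as partners. Of the 5 genes, 0 passed the test (limma), and 1 had an unadjusted p under 0.05, against 18.5% of all genes. The log2 fold changes other than that of Grik2 lay between 0.02 (Grik3) and 0.12 (Grik1). Grik5 had the highest level per kilobase, 63.8% of the kainate receptor sum in mutant and 62.9% in control libraries. Grik4 came next on both length scales, and the order of Grik2 and Grik3 differed between the 2 scales.

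Grik2, the gene for GluK2, was named by the study among calcium homeostasis genes with marked changes in its hippocampal transcriptome. It was at 1107, 1156, 1214 and 1163 in Nestin;BrafKE/+ replicates 1 to 4 and at 1251, 1514, 1235.5, 1254 and 1306 in Braf+/+ replicates 1 to 5. The groups did not overlap, but 1214 and 1235.5 lie close, and the choroid-rich Braf+/+ replicate 2 was the highest library. The means were 1160 ± 43.6 and 1312 ± 116, with a log2 fold change of -0.17 (SE 0.08) and an adjusted p of 0.252 (limma). The study tested with DESeq2 and its own batch adjustment, so the tests are unlike. The exact permutation p was 0.0833 within series and 0.0159 over all assignments. Without the 2 choroid-rich controls the log2 fold change was again -0.17 (adjusted p = 0.345, limma). The ratio of Grik2 to Grik5 was 0.285 ± 0.017 (n = 4) and 0.338 ± 0.044 (n = 5), a log2 difference of -0.24. Its exact permutation p was 0.0833 over assignments within series (0.167 adjusted) and 0.0317 over all assignments (0.0952 adjusted). It was lower within all 3 series, by -0.30, -0.23 and -0.16 in A, B and C, and was -0.16 without both choroid-rich controls.

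Grid1 encodes a delta receptor, which organises synapses through secreted partners more than it conducts current. It was at 1314 ± 26.9 (n = 4) and 1268 ± 114 (n = 5), a log2 fold change of 0.06 with a 95% interval from -0.12 to 0.23.

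**Figure D2:**
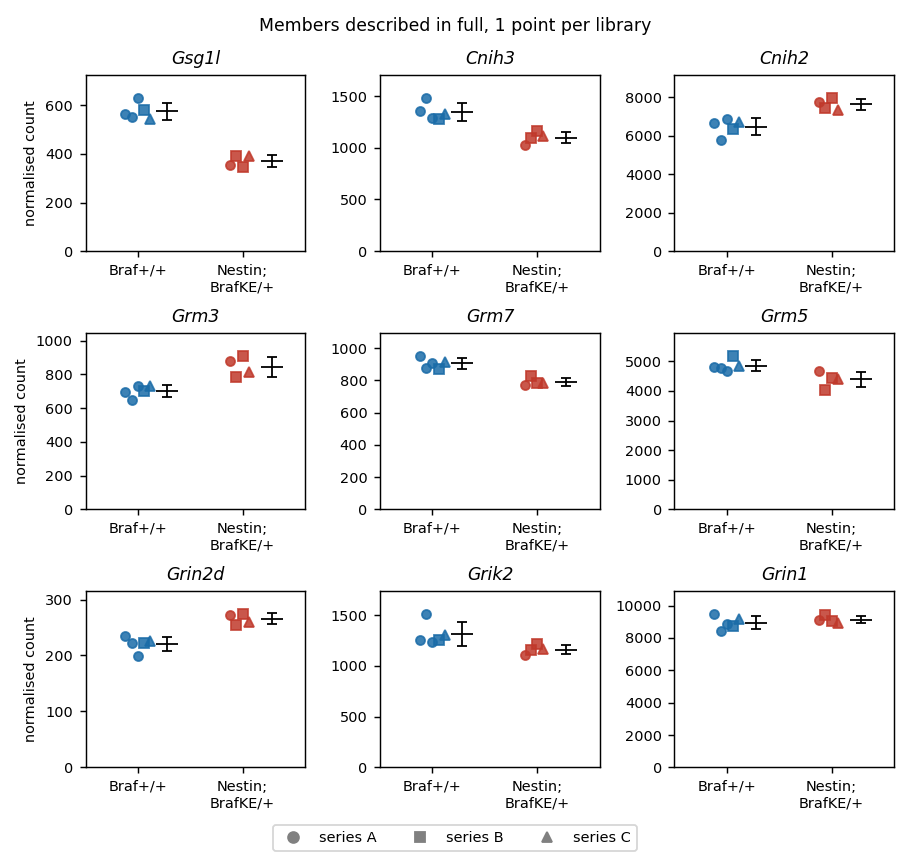
Normalised count (y axes, starting at 0) in each library of the 9 members given in full, with Braf+/+ in blue, Nestin;BrafKE/+ in red, and the marker shape giving the series. Black bars are the mean ± SD. Gsg1l leaves a gap between the groups, from 393 to 543, and Grm5 and Grin1 overlap.

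The 6 metabotropic receptors had 0 members past the test (limma), where the background was 2.88%, and 3 at an unadjusted p under 0.05, where it was 18.5%. Of these 3, 2 were lower (Grm5 and Grm7) and 1 was higher (Grm3). Of the 6, 5 had a log2 fold change below 0, among them Grm4 at -0.01, against 8083 of the 16196 genes tested. The count among the 6 was 3 without Nestin;BrafKE/+ replicate 4 or without Braf+/+ replicate 5, where Grm4 and Grm8 turned sign. These libraries are the only mutant and the only control of series C, so leaving out either takes series C out of the genotype term. The summed level of the 6 receptors per kilobase of canonical transcript was 1055 to 1131 in Nestin;BrafKE/+ and 1169 to 1202 in Braf+/+ libraries, ranges that did not overlap. Grm5 made up 46.7% and 48.2% of this sum.

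Grm3, a group II receptor known from astrocytes as well as neurons, was at 877, 783, 911.5 and 813 in Nestin;BrafKE/+ replicates 1 to 4 and at 697, 646, 733, 700.0 and 729 in Braf+/+ replicates 1 to 5. Every mutant library was above every control. The means were 846 ± 58.8 and 701 ± 34.7, a difference of 20.7%, and the log2 fold change was 0.27 (SE 0.08), with an adjusted p of 0.0880 (limma). Without both choroid-rich controls it was 0.24 (adjusted p = 0.331, limma). Its share of the metabotropic sum per kilobase was 14.3% ± 0.60 (n = 4) against 11.02% ± 0.56 (n = 5), without overlap. Series A, B and C gave log2 differences of 0.34, 0.27 and 0.16. Glial markers moved with the genotype in the same libraries. Of all genes tested, 1.52% were past the test and higher. The summed level of 9 astrocyte markers was 55720 to 62260 in mutant and 45360 to 49510 in control libraries, with 3 of the 9 past the test and higher (Gfap, Aldoc and S100b). The sum of 7 oligodendrocyte markers was 121200 to 130700 and 88200 to 106600, with 4 of the 7 past the test and higher (Mog, Mag, Mobp and Cldn11). The sum of 5 oligodendrocyte precursor markers was 4366 to 4794 and 3570 to 3988, with 1 past the test and higher (Cspg4). No marker of these lists was at 0. Their part in the Grm3 values was not tested.

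Grm5, the Gq-coupled group I receptor that can trigger long-term depression, was at 4678, 4039, 4452 and 4394 in Nestin;BrafKE/+ replicates 1 to 4 and at 4799, 4769, 4676, 5193 and 4848 in Braf+/+ replicates 1 to 5. The groups touched, because the mutant of series A lay 2 normalised counts above the lowest control. The means were 4391 ± 265 and 4857 ± 198, the log2 fold change was -0.15 (SE 0.06) and the adjusted p was 0.209 (limma). The exact permutation p was 0.0833 within series and 0.0159 over all assignments. The difference was -0.02 in series A, -0.29 in series B and -0.14 in series C, and without the 2 choroid-rich controls it was -0.071. A single library moved it as far, to -0.069 without Braf+/+ replicate 4 and to -0.23 without Nestin;BrafKE/+ replicate 1. These are the only control of series B and the only mutant of series A.

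Grm7, a presynaptic group III receptor with low affinity for glutamate, was at 770.0, 828.5, 784 and 785 in Nestin;BrafKE/+ replicates 1 to 4 and at 954, 877, 909, 874 and 914 in Braf+/+ replicates 1 to 5. All mutant libraries lay below all controls. The means were 792 ± 25.4 and 905.5 ± 32.5, with a log2 fold change of -0.19 (SE 0.06) and an adjusted p of 0.129 (limma). Without both choroid-rich controls it was -0.25 (adjusted p = 0.225, limma). The exact permutation p of Grm3 and of Grm7 was 0.0417 within series and 0.00794 over all assignments, again the smallest possible. The other group II and III receptors, Grm2, Grm4 and Grm8, had log2 fold changes of -0.20, -0.01 and -0.11, and each differed in sign between series. For Grm2 the difference was -0.50 in series A, -0.11 in series B and 0.10 in series C, and it was -0.016 without Nestin;BrafKE/+ replicate 1. For Grm8 it ran from -0.36 without that library to 0.10 without Nestin;BrafKE/+ replicate 4.

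The auxiliary subunits held both members past the test. Gsg1l encodes a claudin-fold protein that binds AMPA receptors, slows their recovery from desensitisation and dampens their current. It lies on chromosome 7 (125477577 to 125682068, minus strand, GRCm39). It was at 354, 393, 346 and 391.8 in Nestin;BrafKE/+ replicates 1 to 4 and at 566, 553, 632, 580.5 and 543 in Braf+/+ replicates 1 to 5. All 4 mutant libraries lay well below the lowest control, in a narrow band, and neither choroid-rich control was extreme. The mean was 371.5 ± 24.6 (n = 4) against 575 ± 34.8 (n = 5), so it fell by 35.4%, with a log2 fold change of -0.63 (SE 0.08, 95% interval -0.82 to -0.44) and an adjusted p of 0.00483 (limma). It ranked 47 by p-value among the 16196 genes tested. Series A, B and C gave -0.72, -0.65 and -0.47.

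The exact permutation p of Gsg1l was 0.0417 within series and 0.00794 over all assignments, the smallest possible. The call was lost without Nestin;BrafKE/+ replicate 1 (log2 fold change -0.57, adjusted p = 0.0674, limma) and without both choroid-rich controls (-0.63, adjusted p = 0.0729), and held in the other 19 of 21 alternatives. Nestin;BrafKE/+ replicate 1 is the only mutant of series A, so leaving it out takes the whole of series A out of the genotype term. Per kilobase of canonical transcript Gsg1l had the lowest level of the auxiliary subunits, 84.1 in Nestin;BrafKE/+ and 130.3 in Braf+/+ libraries, which is 0.981% and 1.65% of their sum.

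The cornichon homologs Cnih2 and Cnih3 bind AMPA receptors, carry them to the surface and slow their deactivation. Their log2 fold changes had opposite signs, -0.29 for Cnih3 and 0.24 for Cnih2, of which the second did not pass the test. The region around the RefSeq transcription start of both is shown on GRCm38.p6, for Cnih2 at chr19:5098472-5098771 on the minus strand and for Cnih3 at chr1:181352378-181352677 on the plus strand. Each is 300 bases, written from 5′ to 3′ in the direction of the gene, with GC boxes (GGGCGG, or CCGCCC on the other strand) and E-boxes (CACGTG) in capitals.
Cnih2: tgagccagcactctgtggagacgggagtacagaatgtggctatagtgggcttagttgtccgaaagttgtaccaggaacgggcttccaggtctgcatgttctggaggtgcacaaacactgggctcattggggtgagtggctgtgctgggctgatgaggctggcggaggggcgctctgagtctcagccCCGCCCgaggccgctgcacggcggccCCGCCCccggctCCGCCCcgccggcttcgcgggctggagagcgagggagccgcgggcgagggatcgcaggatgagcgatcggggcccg
Cnih3: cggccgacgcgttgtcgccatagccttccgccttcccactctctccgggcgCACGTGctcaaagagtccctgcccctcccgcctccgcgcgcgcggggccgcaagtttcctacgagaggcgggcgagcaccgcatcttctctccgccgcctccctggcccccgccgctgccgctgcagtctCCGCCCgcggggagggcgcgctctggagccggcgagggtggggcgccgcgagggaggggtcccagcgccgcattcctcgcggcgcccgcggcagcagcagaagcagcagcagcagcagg

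The Cnih2 window held 3 GC boxes and no E-box, and the Cnih3 window held 1 of each. Of the 30 members, 17 had an entry in the RefSeq promoter table. A member was counted if any of its entries held the motif, while the background is the share of single entries, so the units are unlike. A GC box was found on either strand in 13 of the 17 and in 35.7% of 32851 promoters, an E-box in 2 (Cnih3 and Grin1) and in 7.15%, the ETS core CCGGAA in 1 (Grik2) and in 14.9%, and the CRE TGACGTCA in 0 and in 1.79%. The marked motifs do not overlap in either window. A match is a description of the letters only.

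Cnih3 lies on chromosome 1 (181180024 to 181289051, plus strand, GRCm39). It was at 1027, 1091, 1161 and 1113 in Nestin;BrafKE/+ replicates 1 to 4 and at 1357, 1485, 1284, 1277.5 and 1325 in Braf+/+ replicates 1 to 5. The groups did not overlap, and the highest library was the choroid-rich Braf+/+ replicate 2. The mean was 1098 ± 55.6 (n = 4) against 1346 ± 84.3 (n = 5). It fell by 18.4%, with a log2 fold change of -0.29 (SE 0.07, 95% interval -0.45 to -0.14) and an adjusted p of 0.0498 (limma), just inside the threshold. Series A gave -0.42, series B -0.18 and series C -0.25. The call held in 5 of 21 alternatives and was lost on leaving out any 1 of the 9 libraries, with adjusted p from 0.00534 to 0.261 over the alternatives. Without both choroid-rich controls it was -0.31 (adjusted p = 0.131, limma).

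Cnih2 lies on chromosome 19 (5142891 to 5148672, minus strand, GRCm39). It was at 7766.5, 7451, 7987 and 7352 in Nestin;BrafKE/+ replicates 1 to 4 and at 6665, 5779.9, 6863, 6331 and 6712 in Braf+/+ replicates 1 to 5. Every mutant library was above every control, and the 2 lowest libraries were the choroid-rich controls. The mean was 7639 ± 292 (n = 4) against 6470 ± 432 (n = 5), a difference of 18.1%, with a log2 fold change of 0.24 (SE 0.06, 95% interval 0.10 to 0.38) and an adjusted p of 0.0690 (limma). Without both choroid-rich controls it was 0.17 (adjusted p = 0.268). Yif1a overlaps an exon of Cnih2 on the opposite strand and was at 238 ± 38.2 and 183 ± 14.9, far below Cnih2 itself. The exact permutation p of Cnih2 and of Cnih3 was 0.0417 within series and 0.00794 over all assignments.

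Per kilobase of canonical transcript, Cnih2 was the most abundant auxiliary subunit, with 55.4% ± 1.26 (n = 4) and 51.0% ± 1.52 (n = 5) of their sum. Cnih3 made up 7.52% ± 0.40 (n = 4) of the 2 cornichons in Nestin;BrafKE/+ and 10.6% ± 1.22 (n = 5) in Braf+/+ libraries, with 6.96 to 7.89% against 9.57 to 12.7%. This share was not tested. The summed level of the 8 auxiliary subunits was 8353 to 8717 per kilobase in mutant and 7383 to 8122 in control libraries, of which Cnih2 is the largest part.

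The other 5 auxiliary subunits did not pass the test. Shisa6, Shisa7 and Shisa9 are single-pass proteins of the Shisa family that modulate AMPA receptors, and their log2 fold changes were 0.08, 0.07 and -0.10. Neto1 and Neto2, auxiliary subunits of kainate receptors, were at -0.09 and 0.07, and neither had 1 sign in all 3 series. For these 5 genes the 95% intervals lay within -0.28 to 0.29.

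**Figure D3:**
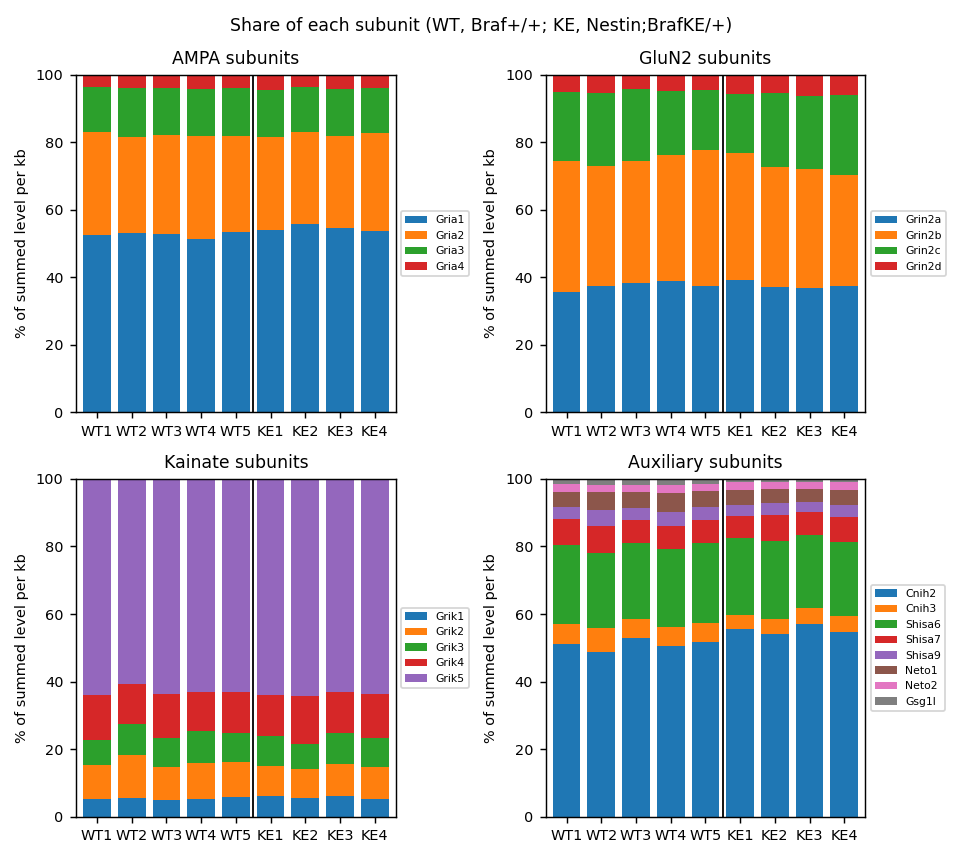
Share of each subunit (y axes, percent of the summed level per kilobase of canonical transcript) in each library (x axes, WT for Braf+/+ and KE for Nestin;BrafKE/+, with the replicate number) for the AMPA, GluN2, kainate and auxiliary subunits. Gria1, Grik5 and Cnih2 are the largest band of their class in all libraries, Grin2a and Grin2b change places between libraries, and the Cnih3 and Gsg1l bands are thinner in the 4 mutant libraries.

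Markers of the principal neurons gave mixed values in the same libraries. For comparison, 2.88% of all genes passed the test (1.52% higher and 1.36% lower) and 18.5% had an unadjusted p under 0.05 (limma). Of 7 dentate granule markers 2 passed the test and were lower (Dsp at -0.78 and Lct at -0.39), while the other 5 lay between -0.05 (Prox1) and 0.11 (Dock10) and the list median was 0.04. The summed level of the 7 was 7041 to 7362 in Nestin;BrafKE/+ and 7377 to 7769 in Braf+/+ libraries. Of 6 CA1 markers 2 were past the test and higher (Wfs1 and Fibcd1), with sums of 14840 to 15020 and 11950 to 12230. Of 6 CA3 markers 1 was past the test and higher (Grp at 1.07), 4 had log2 fold changes below 0 at an unadjusted p under 0.05 (Iyd at -1.23, Nectin3 at -0.26, Nptx1 at -0.24 and Cpne4 at -0.22), and the list median was -0.23, with sums of 14380 to 16480 and 15870 to 17590, which overlapped. Of 6 markers of excitatory neurons 1 was past the test and lower (Neurod2) and 3 were above 0, with sums of 111400 to 135500 and 104400 to 122300, which overlapped. The sums of microglial, endothelial and thalamic markers overlapped between the groups, with 0 genes past the test (limma) and 2, 0 and 0 at an unadjusted p under 0.05. Of the marker genes named as past the test, Npy, Cspg4, Wfs1, Grp and Neurod2 also passed without both choroid-rich controls and the others did not. The part of the neuronal markers in the values of Gsg1l, Cnih2 and Cnih3 was not tested.

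**Figure D4:**
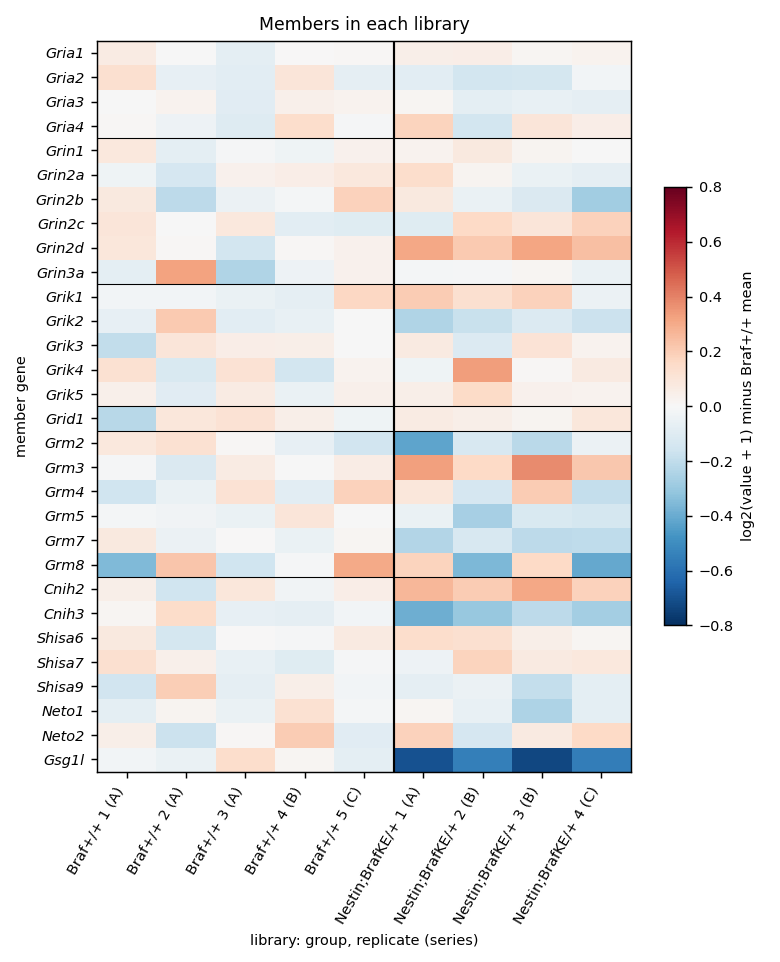
Log2(value + 1) of each member (rows, grouped by class) in each library (columns, series in brackets) less the mean of the 5 Braf+/+ libraries. The Gsg1l row is blue in all 4 Nestin;BrafKE/+ libraries, Cnih3 is a paler blue there, and Grin2d, Grm3 and Cnih2 are red, while most other rows show no split by genotype.

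Other genes of the glutamate synapse were counted in the same fit, where 2.88% of all genes passed and 18.5% had an unadjusted p under 0.05 (limma). Of 12 relatives of the members (other receptor genes, Grina, TARPs and Shisa8), 10 were tested, without Grin3b and Grm6, and 0 passed (limma; 2 at an unadjusted p under 0.05). Of the TARPs, the principal AMPA receptor auxiliary subunits of the hippocampus, Cacng8 was at 2123 ± 206 (n = 4) and 1903 ± 206 (n = 5), a log2 fold change of 0.16 with an adjusted p of 0.419 (limma), and it was 0.0034 without both choroid-rich controls.

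Of 14 genes of AMPA receptor assembly and clustering, 2 were past the test and higher and 1 was lower, where the backgrounds were 1.52% and 1.36% of all genes. Nptx2, an activity-regulated pentraxin that clusters AMPA receptors, was at 666.5 ± 37.5 (n = 4) and 463 ± 47.3 (n = 5), with a log2 fold change of 0.53 and an adjusted p of 0.0187 (limma). Prrt1, also called SynDIG4, was at 2966 ± 150 and 2355 ± 161, with a log2 fold change of 0.33 and an adjusted p of 0.0271. Olfm1, a secreted olfactomedin found in AMPA receptor complexes, was at 15330 ± 760 and 18990 ± 486 and fell by 0.31 on the log2 scale (adjusted p = 0.0115, limma). None of the 3 passed without both choroid-rich controls (adjusted p = 0.129, 0.239 and 0.0598 for Nptx2, Prrt1 and Olfm1, limma) or without Nestin;BrafKE/+ replicate 1 (0.122, 0.119 and 0.109). Nptx2 and Prrt1 also failed without Braf+/+ replicate 4 (0.128 and 0.1696) or Nestin;BrafKE/+ replicate 3 (0.0590 and 0.0762), and Prrt1 without Nestin;BrafKE/+ replicate 2 (0.0550). The median of this list was -0.02.

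Of 18 genes that anchor or traffic receptors, 0 were past the test (limma; 5 at an unadjusted p under 0.05), and Dlg4, the gene for PSD-95, came nearest at 0.22 with an adjusted p of 0.0510 (0.14 and 0.326 without both choroid-rich controls). Of 14 genes of glutamate transport and metabolism, 0 were past the test (4 at an unadjusted p under 0.05), with log2 fold changes of -0.06 for Slc1a2 and 0.20 for Slc1a3, the main astrocytic glutamate transporters. The background at an unadjusted p under 0.05 was 18.5% of all genes (limma). The medians of these 2 lists were 0.02 and -0.04.

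Gene models limit some of these values. In Gencode vM39, a later annotation than the one the study counted with, a gene on the same strand overlaps an exon of 7 members and a gene on the opposite strand overlaps an exon of 19, among them Gsg1l (Gm51456), while 8 members have neither. The libraries were stranded, and the strand setting of the counting is not given in the sources used here.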

How the data were processed

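Stranded mRNA libraries were prepared from mouse hippocampus, 1 per animal. The authors processed the reads with Trim Galore, STAR (GRCm39), Salmon and DESeq2, with adjustment for batches that are not named. The deposited values are a signal in normalised counts. Within each library 100% were whole multiples (tolerance 0.01) of a step of 0.9934 to 1.004, but mt-Co1 was the whole number 491938 in all 9 libraries, so these are not sequenced reads. The depth is unknown and no count model was used.

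The test was limma 3.58.1 under R 4.3.3 (mean-variance trend, two-sided) on log2(value + 1) of genes averaging 10 or more, with genotype and name series as terms and Benjamini-Hochberg adjustment over all genes tested, at a threshold of 0.05. Log2 fold changes are on this scale, which understates the change of low genes. Steps were tested on simulated data. Single values were tested by exact permutation over 24 assignments of genotype within series and over all 126. The 126 assignments ignore the series. Log2 fold changes of the members were nearly the same with and without the series term (Gsg1l -0.63 in both). This would be so if the deposited values were already adjusted for series. The p over all assignments would then be too small, and the p within series is the safer of the 2. Members at an unadjusted p under 0.05, Grik2 and Grin1 were given in full, and of the other lists the genes past the threshold were named; further genes were named after their values were seen. Levels per kilobase used the Ensembl canonical transcript of Gencode vM39, and promoters came from RefSeq (GRCm38.p6). Figures were drawn with Python 3.11.15 and matplotlib 3.10.9. The members and lists were chosen with earlier results of these data known. Leaving out both choroid-rich controls was an alternative added after seeing the data. Each library is a separate mouse. The human spheroid libraries were not analysed here.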

Additional observations from a re-analysis of the deposited data

Results flagged for a closer look

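In groups of 4 or 5 libraries, 68 sets of values (each member and each ratio, per genotype) were examined for a library far from the rest of its group, and 5 were found, where about 1 in 20, or 3.4, would be expected by chance. All 5 concern the kainate subunits or a ratio of subunits. Grik1 was at 283 in Braf+/+ replicate 5 and at 240.0 to 249 in the other controls. Grik2 was at 1514 in Braf+/+ replicate 2, one of the choroid-rich libraries, and at 1235 to 1306 in the other controls. Grik5 was at 4321 in Nestin;BrafKE/+ replicate 2 and at 3967 to 4016 in the other mutants. The ratio of Grin2a to Grin2b was 0.703 in Nestin;BrafKE/+ replicate 4 and 0.636 to 0.644 in the other mutants. The ratio of Grik2 to Grik5 was 0.414 in Braf+/+ replicate 2, which shares its Grik2 value, and 0.303 to 0.335 in the other controls.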

How the results depend on the processing

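Against 2 members past the threshold, there was 1 with a pseudocount of 0.5, no minimum mean, quantile normalisation, upper-quartile scaling, 4 name prefixes or array quality weights, and in each of these it was Gsg1l. There were 6 with no series term, 4 at an adjusted p under 0.1, 4 with the replicate block and 0 with both choroid-rich controls left out. Leaving out 1 library gave 0 (without Nestin;BrafKE/+ replicate 1) to 1. The count was again 2 with a pseudocount of 8, a minimum mean of 50 and robust eBayes. With no series term Grin2d (0.27, adjusted p = 0.0227, limma), Grm3 (0.27, 0.0113), Grm7 (-0.19, 0.0143) and Cnih2 (0.24, 0.0101) also passed. Their log2 fold changes were nearly those of the main fit and the SE was smaller (0.067 against 0.097 for Grin2d, 0.043 against 0.062 for Grm7). If the deposited values were already adjusted for series, the SE without the series term is too small. Numbers 1 to 4 are shared by the groups in the labels, but the same-numbered libraries did not deviate together (correlations -0.39, -0.08, 0.07 and 0.41), and 1 of 4 numbers came from the same series in both groups, so the numbers do not pair the mice. With the replicate block Grm3 (0.28, adjusted p = 0.0206, limma) and Cnih2 (0.26, 0.0149) also passed. Over all genes 466 passed, against 2260 with no series term, 1405 with the block, 258 with array weights, 165 with prefixes, 58 without both choroid-rich controls and 42 (without Nestin;BrafKE/+ replicate 1) to 369 on leaving out 1 library. Grin1 turned sign without both choroid-rich controls (-0.020, adjusted p = 0.918). The log2 difference of Gria1 to Gria2 ran from 0.061 (without Braf+/+ replicate 4) to 0.19 on leaving out 1 library. The cause of these shifts was not tested. The unknown depth gives no counting error, and 4 against 5 animals in 3 series set the precision. Leaving out both choroid-rich controls removes every control of series B, so that series then adds nothing to the genotype term. The same holds on leaving out any library that is the only one of its genotype in a series. These are Nestin;BrafKE/+ replicate 1 in series A, Braf+/+ replicate 4 in series B, and Nestin;BrafKE/+ replicate 4 and Braf+/+ replicate 5 in series C. Leaving out one of them drops a series and not only a library.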
